A study of Mus musculus with 21 samples.

Results

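The desmosome cadherins and plaque proteins are described here through 10 of the 49315 genes in the count files: Dsg1a, Dsg1b, Dsg2, Dsg3, Dsc1, Dsc2, Dsc3, Dsp, Pkp1 and Jup. They were chosen by name, matching Ensembl identifiers to gene symbols, and all 10 were found and passed the filter on low counts. RNA of mouse epidermal sheets had been sequenced after removal of ribosomal RNA, in a study of AP-2α and AP-2β, transcription factors encoded by Tfap2a and Tfap2b. The comparison was between 3 libraries from mice 6 months old labelled K14CreTfap2afl/flTfap2bfl/fl, called dKO-labelled (double knockout) below, and 3 libraries from strain-specific control mice of the same age, whose genotype label is Wt. A further 2 libraries with counts came from mice 3 weeks old labelled K14CreTfap2bfl/fl. The keratin 14 promoter drives Cre recombinase in basal keratinocytes and their descendants, so other skin cells keep both floxed genes, and the labels do not say whether control mice carried Cre. The remaining 13 of the 21 files, all at 3 weeks, listed every gene at 0.

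Desmosomes are the adhesive junctions that tie neighbouring keratinocytes together and anchor their keratin filaments. Desmogleins (Dsg) and desmocollins (Dsc) are the cadherins that cross the membrane and bind those of the next cell; plakoglobin (Jup) and plakophilin 1 (Pkp1) bind their tails inside the cell, and desmoplakin (Dsp) links that plaque to keratin. As keratinocytes move up from the basal layer the cadherins are exchanged, with Dsg3 and Dsc3 strongest in the lower layers and Dsg1 and Dsc1 in the upper ones, while Dsg2 and Dsc2 are minor basal or widely expressed forms. Antibodies against Dsg3 and Dsg1 cause pemphigus, and mutations of Dsp, Pkp1 or Jup cause fragile skin.

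The 8 libraries held 11318181 to 17746284 counts. At 6 months the keratinocyte transcript Krt10 stood at 5235 to 7824 counts per 1000000 counts (CPM). Summed over the libraries of that age, Krt10 held 517576 counts. The largest sums were those of Gm26917 (4002012), Neat1 (1836469) and Malat1 (1525676). Neither targeted gene was lost in the gene counts. Tfap2a was at 165, 140.3 and 210.1 CPM in the controls and at 229, 213 and 309 CPM in the dKO-labelled libraries, and Tfap2b was at 57.3, 86.6 and 71.03 against 53.8, 57.2 and 56.9 CPM. A count over a whole gene takes in reads outside a deleted exon, and each direction below is that of the libraries as labelled. Control replicates 1 and 2 stood apart in a low background across genes that epidermis does not use: odorant and vomeronasal receptor genes held 1.61 and 3.19 counts per exonic kilobase there, and 0.0970 to 0.195 in the other 6 libraries. Nothing in the labels says that the 3 samples of a group came from separate animals, so p-values measure the spread between these samples.

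At 6 months, 4 of the 10 desmosome genes were higher in the dKO-labelled libraries (Dsc2, Dsg1b, Dsg3 and Pkp1), 1 was lower (Dsc1), and 5 did not pass the test (Dsg1a, Dsg2, Dsc3, Dsp and Jup). A gene passed when its adjusted p in edgeR's quasi-likelihood test, corrected over all genes tested, was under 0.05. Across the 17755 genes tested, 14.9% passed, 6.26% as higher and 8.59% as lower. The members' median log2 fold change was 0.18, against -0.035 for all genes tested. That of all genes was 0.027 when libraries were scaled by total counts in place of the test's TMM factors. By CPM, which are scaled by total counts, every dKO-labelled library lay above every control in 5 members, against 22.5% of all genes. In 1 member every one lay below, against 16.3% (38.7% in either direction). Leaving out single libraries changed the counts of genes that passed. Of the members, 3 passed without control replicate 1 or without dKO-labelled replicate 1 or 2, and 6 without control replicate 3. The count over all genes, 2637, ran from 668 without dKO-labelled replicate 1 to 7544 without control replicate 3. It moved by over 1.5 times with each of the 6 left out. With the receptor-gene background subtracted, the same 5 members passed. In bulk epidermis, fewer cells of a type and less RNA per cell cannot be told apart.

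**Figure D1:**
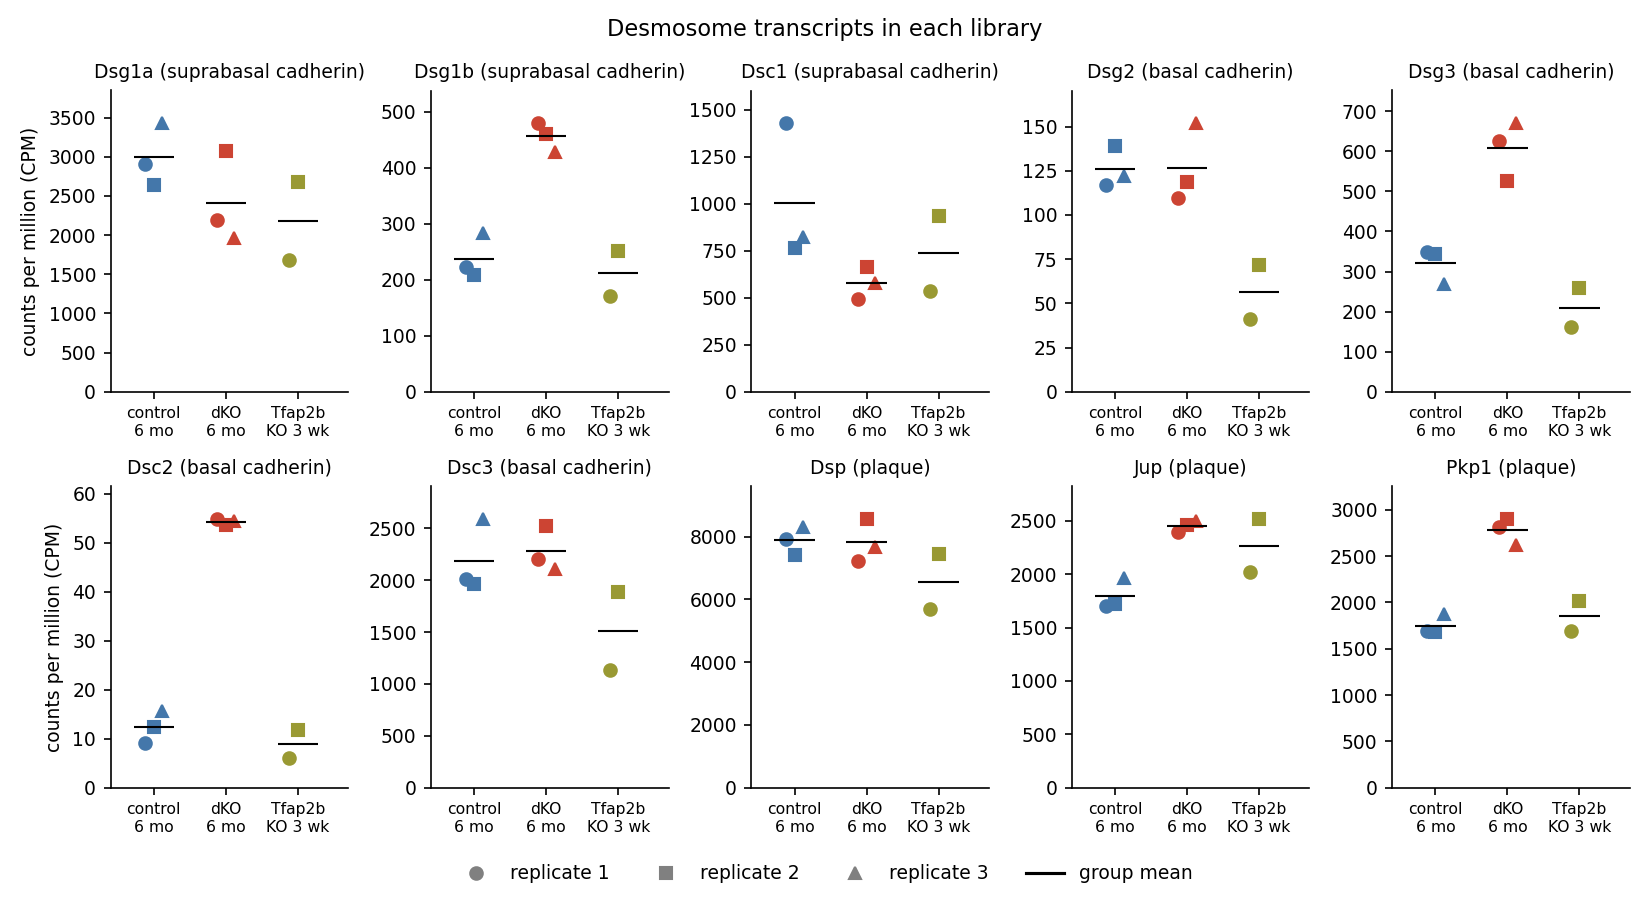
Level of each of the 10 desmosome transcripts in the 8 libraries with counts, in CPM (vertical axis, from 0, its scale differing by panel); symbols give the replicate number and black lines the group means. The red points (dKO-labelled, 6 months) lie clear above the blue controls for Dsg1b, Dsg3, Dsc2, Pkp1 and Jup, clear below them for Dsc1, and among them for the other 4 genes.

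The cadherins of the upper layers did not move together: Dsg1b rose, Dsc1 fell and Dsg1a did not pass the test. Dsg1a, the main Dsg1 gene of these libraries (ENSMUSG00000069441, chromosome 18, 20310811 to 20343350, plus strand, GRCm38), was at 2901, 2643 and 3433 CPM in control replicates 1 to 3 and at 2188, 3068 and 1965 CPM in the dKO-labelled libraries. The dKO-labelled replicate 2 lay among the controls and the other two below them all. The group means were 2992 ± 403 and 2407 ± 583 CPM (SD, n = 3 each), with a log2 fold change of -0.39 (SE 0.19) and an adjusted p of 0.182 in edgeR's quasi-likelihood test.

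Dsc1, the desmocollin of the upper layers (ENSMUSG00000044322, chromosome 18, 20084703 to 20114773, minus strand), was at 1431, 766 and 823 CPM in the controls and at 493, 663 and 578 CPM in the dKO-labelled libraries. All 3 of the latter lay below the lowest control, and control replicate 1 stood far above the other controls. Dsc1 fell by 0.88 on the log2 scale (SE 0.24, edgeR adjusted p 0.0430), to 0.544 of the control level. That call was lost without control replicate 1 (-0.52, adjusted p 0.0836) and without dKO-labelled replicate 1, 2 or 3 (-0.72, -0.95 and -0.84, with edgeR adjusted p of 0.156, 0.0795 and 0.101), and with all libraries in one fit (-0.83, edgeR adjusted p 0.0942).

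Dsg1b, a close copy of Dsg1a beside it on the chromosome (ENSMUSG00000061928, chromosome 18, 20376729 to 20410196, plus strand), was at 222, 208 and 283 CPM in the controls and at 480.3, 461 and 428 CPM in the dKO-labelled libraries. The groups were well separated, with means of 238 ± 40.1 and 456 ± 26.3 CPM (SD, n = 3 each). Dsg1b rose 1.82-fold (0.87 ± 0.14 on the log2 scale with its SE, adjusted p 0.00565 in edgeR). Of the 100-base stretches of its exons, 31.6% also occur in Dsg1a and 21.9% of those of Dsg1a occur in Dsg1b, so the split of reads between the copies is uncertain. When Dsg1a, Dsg1b and the third copy Dsg1c were counted as 1 gene, the log2 fold change was -0.25 (edgeR adjusted p 0.361), since Dsg1a outweighs the others. Dsg1b thus went from 0.110 to 0.118 of the level of Dsg1a, per exonic length, in the controls to 0.315, 0.215 and 0.313 in the dKO-labelled libraries.

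Among the cadherins of the lower layers, Dsg3 and Dsc2 rose and Dsc3 and Dsg2 did not pass the test. Dsg3, the antigen of pemphigus vulgaris (ENSMUSG00000056632, chromosome 18, 20510304 to 20541310, plus strand), was at 349, 344 and 270.0 CPM in the controls and at 625, 526 and 671 CPM in the dKO-labelled libraries. The lowest of the latter exceeded the highest control by a wide margin. Dsg3 rose 1.79-fold, from 321 ± 44.1 to 607 ± 74.3 CPM (SD, n = 3 each; 0.84 ± 0.16 on the log2 scale with its SE, adjusted p 0.00986 in edgeR). It passed in all 16 other settings tried, with adjusted p up to 0.0396.

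Dsc2, the desmocollin found beyond stratified epithelia in simple epithelium and heart (ENSMUSG00000024331, chromosome 18, 20030633 to 20059554, minus strand), showed the largest change of the 10 genes from the lowest level. It was at 9.05, 12.5 and 15.7 CPM in the controls and at 54.9, 53.7 and 54.4 CPM in the dKO-labelled libraries, which were nearly identical to each other. These values rest on 109, 141 and 241 counts in the controls and on 758, 787 and 966 counts in the dKO-labelled libraries. Dsc2 rose 4.12-fold (2.04 ± 0.21 on the log2 scale with its SE, adjusted p 0.000631 in edgeR) and passed in all 16 other settings, with adjusted p up to 0.00730. The background density of control replicates 1 and 2 amounts to 7.79% and 11.9% of their Dsc2 counts, and with it subtracted the log2 fold change was 2.07. The simple epithelium markers Krt7, Krt8, Krt18, Krt19 and Epcam summed to 112 to 159 CPM in the controls and 117 to 145 CPM in the dKO-labelled libraries, with most of the sum in Epcam (group means of 135 and 126 CPM). Of the 3 that could be tested, 1 was lower, Krt7 (3.73 and 1.31 CPM, log2 fold change -1.48, edgeR adjusted p 0.0457), named after its values were seen.

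Dsc3, the most abundant desmocollin here and essential for epidermal adhesion (ENSMUSG00000059898, chromosome 18, 19960930 to 20002097, minus strand), was at 2009, 1959 and 2591 CPM in the controls and at 2201, 2523.5 and 2110.4 CPM in the dKO-labelled libraries. The groups lay over each other, with a log2 fold change of -0.014 ± 0.15 (SE) and an adjusted p of 0.959 in edgeR. Dsg2, a widely expressed desmoglein (ENSMUSG00000044393, chromosome 18, 20558074 to 20604521, plus strand), was at 117, 139 and 122 CPM in the controls and at 109.6, 119 and 152 CPM in the dKO-labelled libraries. It too overlapped, with a log2 fold change of -0.064 ± 0.16 (SE) and an adjusted p of 0.811 in edgeR. Both signs turned under small changes of the data, for Dsc3 without control replicate 3 (0.21) or dKO-labelled replicate 1 (0.058) or 3 (0.068), and for Dsg2 without control replicate 2 (0.016) or dKO-labelled replicate 1 (0.081) or 2 (0.020). An antisense transcript, Gm16090, shares 330 exonic bases with Dsg2 but held only 9 to 43 counts per library.

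**Figure D2:**
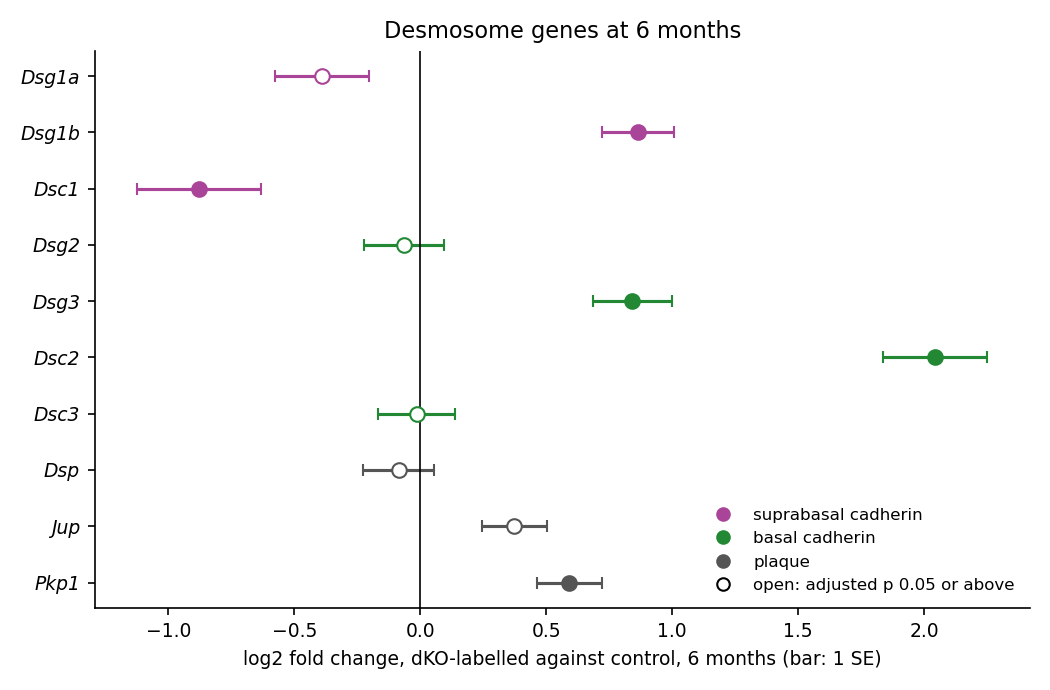
Log2 fold change of each gene, dKO-labelled libraries against controls at 6 months (horizontal axis), with bars of 1 standard error; colour gives the role and filled points passed the test. Within each cadherin group some genes rose while others did not, from Dsc1 at -0.88 to Dsc2 at 2.04.

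The 7 cadherin genes lie in a single cluster on chromosome 18. Dsc3, Dsc2 and Dsc1 follow each other on the minus strand, and Dsg1c, Dsg1a, Dsg1b, Dsg4, Dsg3 and Dsg2 on the plus strand. Neighbours within a family differed: Dsc2 rose between Dsc3, which overlapped between groups, and Dsc1, which fell. On the desmoglein side Dsg1b and Dsg3 rose, and the hair desmoglein Dsg4 between them was at 1.16 to 6.89 CPM in all 6 libraries, with a log2 fold change of -0.18 (edgeR adjusted p 0.891).

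In the plaque, Pkp1 rose, while Jup and Dsp did not pass the test. Dsp (ENSMUSG00000054889, chromosome 13, 38151328 to 38198577, plus strand) ranked 7 among all genes by counts at 6 months. It was at 7906.5, 7423 and 8296 CPM in the controls and at 7223, 8566 and 7655 CPM in the dKO-labelled libraries. The groups overlapped, with a log2 fold change of -0.086 ± 0.14 (SE) and an adjusted p of 0.705 in edgeR, whose sign turned without control replicate 3 (0.034) or dKO-labelled replicate 1 (0.018). Gm10129, on the opposite strand, shares 465 exonic bases with Dsp and held 12 to 36 counts per library.

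Pkp1, the plakophilin of the upper epidermis that clusters desmosomal cadherins (ENSMUSG00000026413, chromosome 1, 135871395 to 135919207, minus strand), was at 1689.5, 1681 and 1877 CPM in the controls and at 2817, 2901.5 and 2619 CPM in the dKO-labelled libraries. The 3 higher values stood well clear of the controls. Pkp1 rose 1.51-fold, from 1749 ± 111 to 2779 ± 145 CPM (SD, n = 3 each; 0.59 ± 0.13 on the log2 scale with its SE, adjusted p 0.0168 in edgeR). The call was lost without control replicate 1 (0.58, adjusted p 0.0520) and without dKO-labelled replicate 1 (0.63, adjusted p 0.0713) or 2 (0.60, adjusted p 0.0563) in edgeR's test.

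Jup, which encodes plakoglobin, a partner of desmosomal cadherin tails (ENSMUSG00000001552, chromosome 11, 100368958 to 100397763, minus strand), was at 1703, 1716.5 and 1968.5 CPM in the controls. In the dKO-labelled libraries it was at 2397, 2457.5 and 2495 CPM, all above the controls. Its log2 fold change of 0.37 (SE 0.13) had an adjusted p of 0.0778 in edgeR's test and so missed the threshold. It passed without control replicate 3 (0.52, edgeR adjusted p 0.0170) and with DESeq2 in place of edgeR (0.38, adjusted p 0.0245).

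Of the 10 genes, Dsp and Jup had an entry among the RefSeq promoters used here (GRCm38.p6). They are shown because AP-2 factors, the family of the floxed genes, bind the letters GCCNNNGGC, which read the same on both strands. Each line gives the 250 bases before the transcription start, 5′ to 3′ on the gene's strand, with a match to those letters in capitals.
Dsp (chr13:38151044-38151293, plus strand): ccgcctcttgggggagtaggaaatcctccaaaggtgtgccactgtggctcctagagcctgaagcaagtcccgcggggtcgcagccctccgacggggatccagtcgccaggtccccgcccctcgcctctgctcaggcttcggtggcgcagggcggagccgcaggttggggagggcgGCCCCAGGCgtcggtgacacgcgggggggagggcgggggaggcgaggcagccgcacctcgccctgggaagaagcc
Jup (chr11:100397791-100398040, minus strand): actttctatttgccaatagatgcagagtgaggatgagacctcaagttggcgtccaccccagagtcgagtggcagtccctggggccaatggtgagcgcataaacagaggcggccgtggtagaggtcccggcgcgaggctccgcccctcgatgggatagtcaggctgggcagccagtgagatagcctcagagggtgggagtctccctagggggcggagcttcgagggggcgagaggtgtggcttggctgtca
The Dsp window held 1 match, starting 75 bases before the start, and the Jup window held none. Among all 32851 promoters of this length in the table, 13.7% held at least 1 match. The AP-1 letters TGANTCA, also the same on both strands, were in neither window and in 6.75% of all of them. A match is a run of letters, not a measured binding site.

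Within each library, the balance of cadherins leaned less to the upper-layer forms in the dKO-labelled libraries. The summed level per exonic kilobase of Dsg1a, Dsg1b and Dsc1 over that of Dsg2, Dsg3, Dsc2 and Dsc3 had log2 values of 0.98, 0.61 and 0.64 in the controls and of 0.11, 0.40 and 0.041 in the dKO-labelled libraries. The groups did not overlap, and their means differed by -0.56 (0.74 ± 0.20 and 0.18 ± 0.19, SD, n = 3 each). Such a ratio does not depend on the scaling between libraries, and no test was made of it because it is a score over chosen genes. It stood at 0.89 and 0.86 in the libraries labelled Tfap2b knockout from 3 weeks.

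In each family the ratio leaned the same way, and both ratios rest on the member values given above. Dsg1a plus Dsg1b over Dsg3 had log2 values of 2.74, 2.63 and 3.36 in the controls and of 1.73, 2.36 and 1.47 in the dKO-labelled libraries. Dsc1 over Dsc3 had log2 values of 0.0013, -0.86 and -1.16 in the controls and of -1.67, -1.44 and -1.38 in the dKO-labelled libraries. Neither pair of groups overlapped, but the difference of the Dsc1 over Dsc3 means, -0.82, shrank to -0.48 without control replicate 1.

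**Figure D3:**
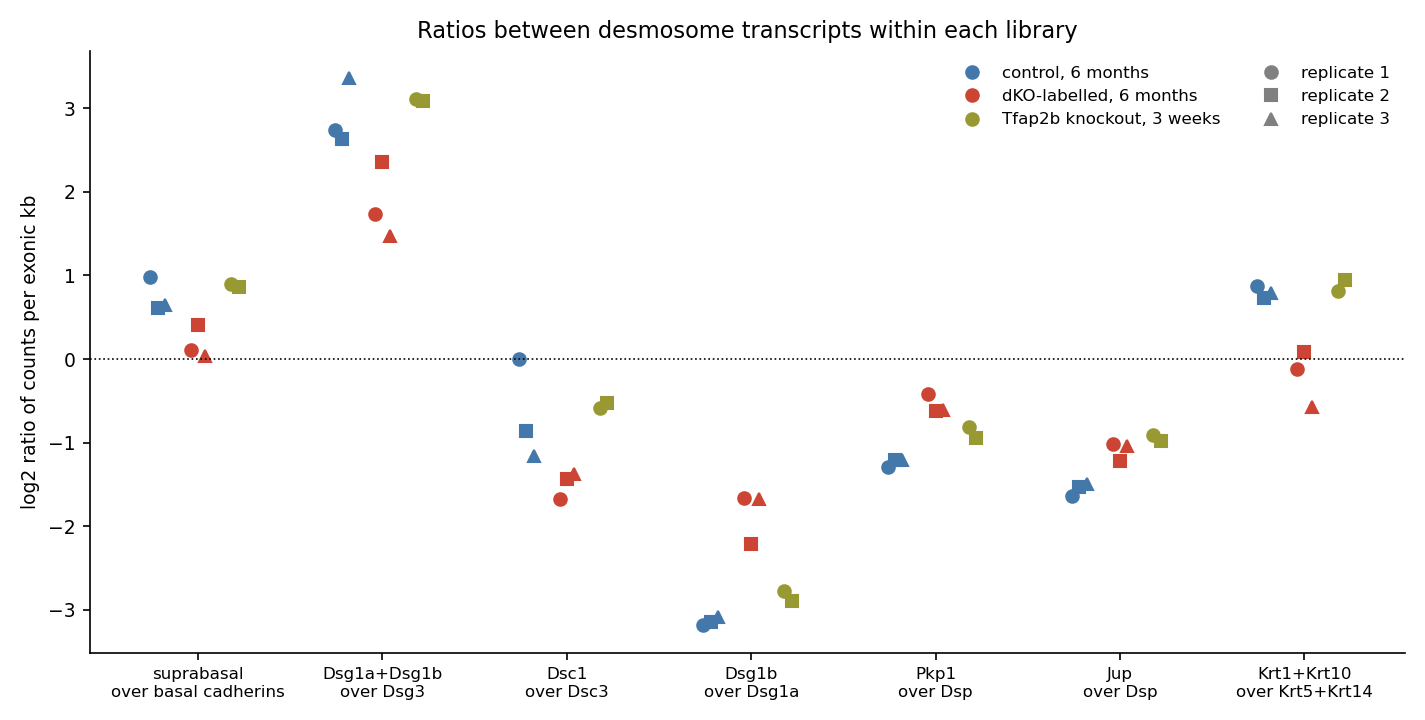
Log2 ratios of levels per exonic kilobase within each library (vertical axis) for pairs of desmosome transcripts and, at the right, for the keratin pairs of the upper and basal layers; colours give the groups and symbols the replicate number. In all 7 ratios shown the blue controls and the red dKO-labelled libraries do not overlap at 6 months. Among ratios not shown, those of all cadherins to Dsp and of Pkp1 to Pkp3 overlapped between these groups.

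Seen as shares of each family, Dsg1a gave 74.9 to 79.8% of desmoglein transcripts per exonic length in the controls and 54.2 to 67.6% in the dKO-labelled libraries. Dsg1b went from 8.42 to 9.45% up to 14.5 to 18.0%, and Dsg3 from 8.69 to 13.5% up to 16.0 to 25.6%. Among desmocollins, Dsc3 gave 49.9 to 68.9% in the controls and 70.9 to 74.6% in the dKO-labelled libraries, Dsc1 gave 30.7 to 49.9% and 23.5 to 27.3%, and Dsc2 gave 0.226 to 0.419% and 1.54 to 1.87%. None of these 6 ranges overlapped between the groups, whereas Dsg2 lay between 1.80 and 2.89% in all 6 libraries. By CPM, 38.7% of all genes tested did not overlap between these groups either. A share moves when any other member of its family does.

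**Figure D4:**
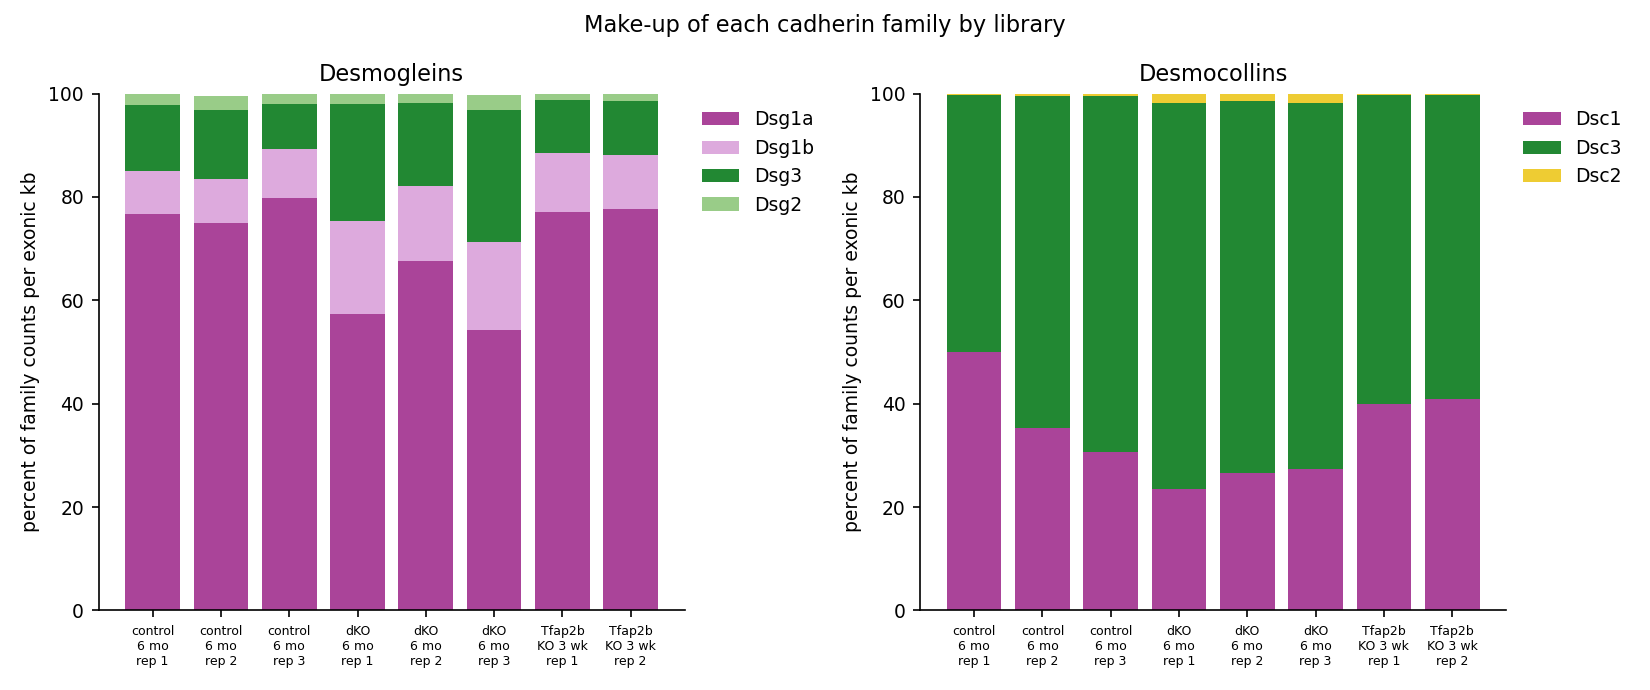
Make-up of the desmogleins (left) and desmocollins (right) in each library, as percent of the family's counts per exonic kilobase (vertical axis, from 0 to 100); the small remainder of the desmoglein bars is Dsg1c and Dsg4. The Dsg3 and Dsg1b segments are widest in the 3 dKO-labelled libraries, where Dsc1 is narrowest.

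The summed cadherin level overlapped between the groups while its make-up did not. Summed per exonic kilobase and per 1000000 counts (RPKM), the 7 cadherins came to 1361 ± 147 in the controls and 1294 ± 144 in the dKO-labelled libraries (SD, n = 3 each), which overlapped. The 4 lower-layer cadherins went from 508 ± 55.6 to 603 ± 21.9 RPKM, with no overlap but a narrow gap (highest control 572, lowest dKO-labelled library 589.9). The 3 upper-layer ones went from 853 ± 118 to 692 ± 122 RPKM, with overlap. Unlike ratios within a library, such sums depend on the scaling between libraries. Against Dsp, the 7 cadherins together had log2 ratios of 0.79, 0.63 and 0.77 in the controls and 0.71, 0.71 and 0.59 in the dKO-labelled libraries. The plaque partners did shift against Dsp: the log2 ratio of Pkp1 to Dsp went from -1.29, -1.20 and -1.21 to -0.42, -0.62 and -0.61. That of Jup to Dsp went from -1.63, -1.53 and -1.49 to -1.01, -1.22 and -1.04. The libraries labelled Tfap2b knockout from 3 weeks also lay above these controls, at -0.81 and -0.95 for Pkp1 and at -0.91 and -0.98 for Jup.

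Ordered by RPKM in the controls, Dsp came first at 818, followed by Dsg1a at 526, Dsc3 at 412, Pkp1 at 348, Jup at 279 and Dsc1 at 267. Dsg3 at 78.1, Dsg1b at 59.96, Dsg2 at 15.2 and Dsc2 at 2.35 RPKM were far lower. Neighbours whose ranges overlapped were Dsg1a and Dsc3, Dsc3 and Pkp1, Jup and Dsc1, and Dsg3 and Dsg1b. In the dKO-labelled libraries Dsp was again first at 812 RPKM, followed by Pkp1 at 553, Dsc3 at 429, Dsg1a at 423 and Jup at 381. The range of Pkp1 there lay above that of Dsc3 but overlapped that of Dsg1a. Dsc1 at 153 was then next to Dsg3 at 148, and Dsg1b at 115, Dsg2 at 15.3 and Dsc2 at 10.3 RPKM kept the last places. There the overlapping neighbours were Dsc3 and Dsg1a, Dsg1a and Jup, and Dsc1 and Dsg3. All 10 genes together took 1.69 to 2.13% of all counts at 6 months.

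Of the keratins that desmosomes anchor, the basal pair Krt5 and Krt14 rose. Krt14, of the basal filaments, was at 1018, 1171 and 1502 CPM in the controls and at 3728, 3903 and 5079 CPM in the dKO-labelled libraries, and its partner Krt5 was at 2434, 2514.5 and 2897 against 4248, 5247 and 5893 CPM. Both rose, with log2 fold changes of 1.71 (edgeR adjusted p 0.000969) and 0.90 (edgeR adjusted p 0.00860), as did Krt1 of the upper layers (1.05, edgeR adjusted p 0.00810). Its partner Krt10 had a log2 fold change of 0.037 (edgeR adjusted p 0.904), and 3 of the 7 keratins in the list were higher, none lower, with a median of 0.037. Krt15, another basal keratin, named after its values were seen, was at 728, 1164 and 1187 CPM in the controls and at 234, 673 and 330.3 CPM in the dKO-labelled libraries, which did not overlap. Its log2 fold change of -1.39 missed the threshold in edgeR (adjusted p 0.0513), but it passed as lower in 8 of 16 other settings, with DESeq2 among them (-1.38, adjusted p 0.00033). Per exonic length, the lower-layer cadherins went from log2 -1.82, -1.94 and -1.93 of Krt5 plus Krt14 in the controls to -2.78, -2.88 and -3.24 in the dKO-labelled libraries. The upper-layer cadherins went from -1.71, -2.06 and -2.08 of Krt1 plus Krt10 to -2.55, -2.56 and -2.62. The log2 ratio of Krt1 plus Krt10 to Krt5 plus Krt14 itself was 0.87, 0.73 and 0.79 in the controls and -0.12, 0.083 and -0.58 in the dKO-labelled libraries.

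Among 10 other desmosome components, 1 was higher, 2 were lower and 7 did not pass, with a median log2 fold change of -0.19. Pkp3, a plakophilin of all epidermal layers, was at 163, 212 and 260.4 CPM in the controls and at 389.8, 366 and 339 CPM in the dKO-labelled libraries, and rose by 0.71 (edgeR adjusted p 0.0220). Cdsn, corneodesmosin, which reinforces desmosomes in the cornified layer, was at 989.7, 666 and 851 CPM against 325, 423 and 398 CPM, and fell by 1.21 on the log2 scale (edgeR adjusted p 0.00344). Pkp2, the plakophilin of simple epithelium and heart, fell by 1.93 (edgeR adjusted p 0.0421) at only 2.67 to 8.04 CPM in the controls. The calls for Pkp3 and Pkp2 were lost without control replicate 1 or 2 or dKO-labelled replicate 1 or 2, at 0.56 to 0.74 for Pkp3 and at -2.13 to -1.31 for Pkp2. Pkp2 also missed the threshold with the receptor-gene background subtracted (-1.84, edgeR adjusted p 0.0580), with limma-voom (-1.88, adjusted p 0.0810) and with all libraries in one fit (-1.88, edgeR adjusted p 0.183), while Cdsn passed in all 16 other settings. Perp, a membrane protein of desmosomes, had a log2 fold change of -0.13 (edgeR adjusted p 0.558) at 2118 to 2424 CPM in the controls, and Dsg1c one of -0.58 (edgeR adjusted p 0.530) at 0.586 to 2.74 CPM.

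The adherens junction, the actin-bound junction beside the desmosome, had 1 of 11 genes higher, 4 lower and 6 not past the test, with a median of -0.19. Nectin3, an adhesion molecule of that junction, was at 159, 141 and 154 CPM in the controls and at 23.2, 26.9 and 11.8 CPM in the dKO-labelled libraries, and fell by 2.95 on the log2 scale (edgeR adjusted p 0.000527). Nectin2 fell by 1.20 (edgeR adjusted p 0.00457) and Afdn, the afadin that binds nectins to actin, by 0.61 (edgeR adjusted p 0.0178), whereas Nectin1 rose by 0.77 (edgeR adjusted p 0.0107). The fourth gene that fell was Nectin4 (-0.56, edgeR adjusted p 0.0218), named after its value was seen. The classical cadherins did not pass: Cdh1, E-cadherin, had a log2 fold change of -0.38 (edgeR adjusted p 0.0664) and Cdh3, P-cadherin, one of -0.077 (edgeR adjusted p 0.811). By CPM, Cdh1 was at 1086, 1081 and 1164 in the controls and at 881, 869 and 949 in the dKO-labelled libraries, with no overlap. Cdh1 passed as lower in 4 of 16 other settings, with DESeq2 among them (-0.37, adjusted p 0.0241). Nectin1 lost its call without dKO-labelled replicate 1 (0.74), and Afdn (-0.60 to -0.54) and Nectin4 (-0.59 to -0.45) without control replicate 2 or any 1 of the dKO-labelled libraries. With all libraries in one fit, Afdn (-0.57, edgeR adjusted p 0.0627) and Nectin4 (-0.52, edgeR adjusted p 0.0598) missed the threshold too, as did Nectin4 with no filter (-0.45, edgeR adjusted p 0.0941), while Nectin2 and Nectin3 passed in all 16 other settings.

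Of 13 regulators of desmosomes and proteases that cut them, 3 were higher, 3 lower and 7 not past the test, with a median of 0.040. The kallikreins, of which Klk5 and Klk7 degrade corneodesmosomes, moved apart: Klk5 was at 138, 68.5 and 69.5 CPM in the controls and at 10.6, 24.8 and 18.7 CPM in the dKO-labelled libraries, while Klk6 was at 4.32, 4.77 and 2.60 against 33.1, 21.1 and 25.8 CPM. Klk5 fell by 2.42 on the log2 scale (edgeR adjusted p 0.00743), Klk7 fell by 1.07 (edgeR adjusted p 0.00495), and Klk6 rose by 2.66 (edgeR adjusted p 0.000875). Spink5, an inhibitor of Klk5 and Klk7, was at 1438, 1266.5 and 1190.5 CPM against 641, 728 and 658 CPM and fell by 1.02 (edgeR adjusted p 0.00241). The other two that rose, named after their values were seen, were the kinase gene Prkca (0.77, edgeR adjusted p 0.0365) and Adam10 (0.71, edgeR adjusted p 0.0163), a sheddase of cadherins. Prkca lost its call without control replicate 2 or dKO-labelled replicate 1 or 2 (0.62 to 0.88), and Adam10 without control replicate 2 or dKO-labelled replicate 2 or 3 (0.59 to 0.74). The transcription factors Trp63 and Grhl1, tied to desmosome genes, did not pass: Trp63 had a log2 fold change of 0.32 (edgeR adjusted p 0.172) and Grhl1 one of -0.35 (edgeR adjusted p 0.0799). Grhl1 passed as lower in 1 of 16 other settings, with the receptor-gene background subtracted (-0.42, edgeR adjusted p 0.0363).

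**Figure D5:**
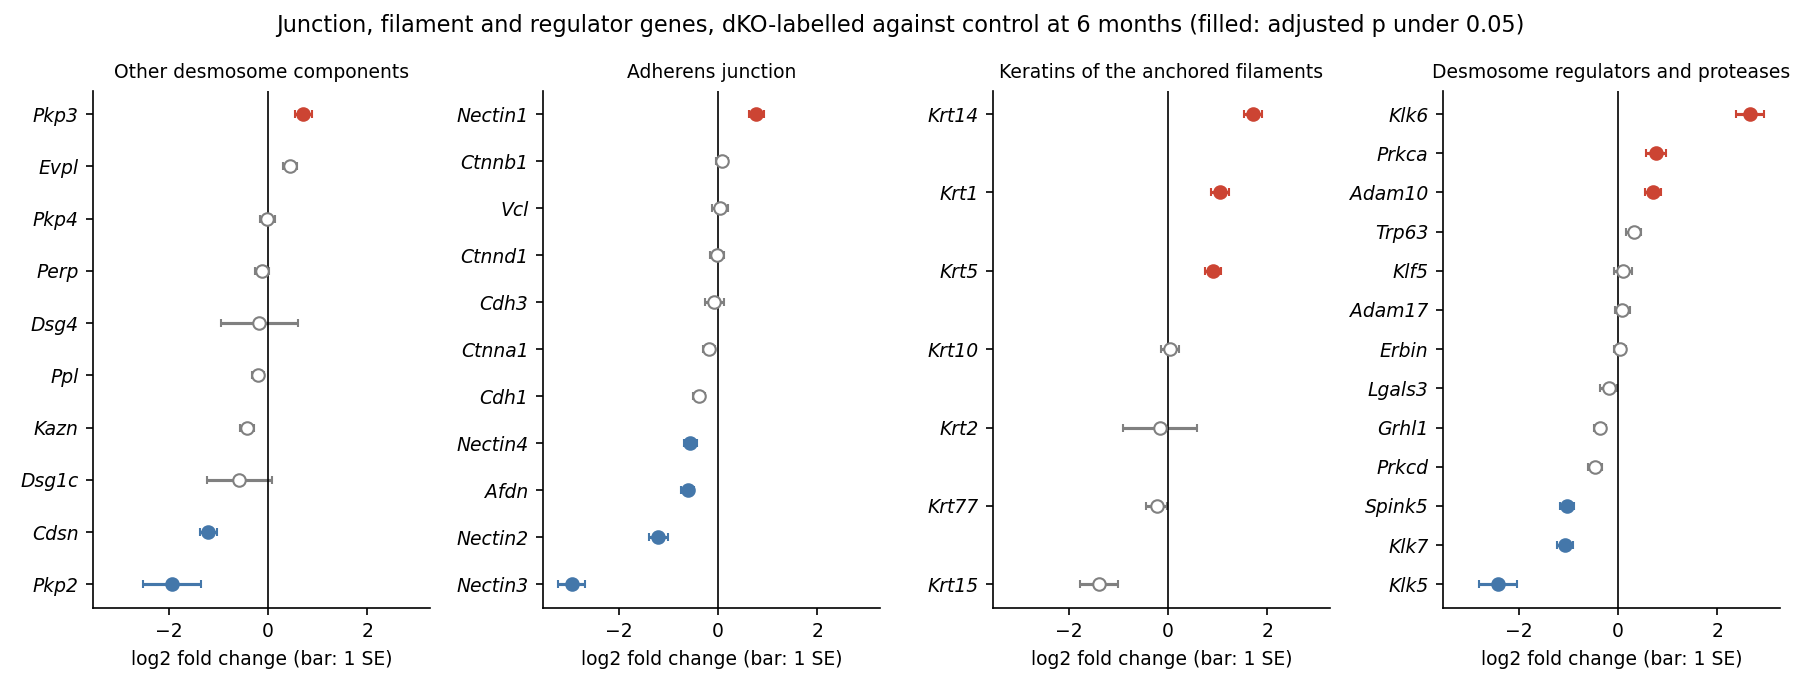
Log2 fold change, dKO-labelled libraries against controls at 6 months (horizontal axis, bars of 1 standard error), for the other desmosome components, the adherens junction, the anchored keratins and the regulators and proteases; filled points passed the test. Changes run both ways in 3 of the panels, from Nectin3 at -2.95 to Klk6 at 2.66, and none of the keratins passed as lower.

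Summed markers of epidermal layers lay apart between the groups for some lists and overlapped for others. The 7 basal keratinocyte markers, with Krt5, Krt14 and Trp63 among them, summed to 8224 to 10485 CPM in the controls and to 15753 to 18754 CPM in the dKO-labelled libraries, and 5 of the 7 were higher. Krt15, among the 7, went the other way, as given above. The 6 suprabasal markers summed to 13718 to 16758 against 13729 to 19428 CPM, with 1 higher. The 8 granular and cornified markers, where Dsg1 and Dsc1 are strong, summed to 3184 to 5212 against 1705 to 3019 CPM, with 2 lower and a median log2 fold change of 0.17. The lower sum came mostly from Flg2 (group means of 2098 and 798 CPM), named after its values were seen. The 5 keratinocyte stress markers (Krt6a, Krt6b, Krt16, Krt17 and Sprr1b) summed to 463 to 723 against 3481 to 4386 CPM, with 4 higher. The sum of sebaceous gland markers, mostly Scd1 (group means of 780.2 and 193 CPM, named after its values were seen), lay below the control range (751 to 925 against 208 to 244 CPM, 2 of 5 lower). So did the sum for dermal fibroblasts (53.0 to 157 against 11.7 to 23.0 CPM, 3 of 6 lower). Hair shaft and inner root sheath markers summed to 42.0 to 55.6 against 26.6 to 40.1 CPM (1 of 8 lower), and no marker of any of these lists was at 0 in all 6 libraries. The part of these shifts in the desmosome values was not tested.

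Across all 8 libraries, the members fell into patterns that the genotype groups partly share. The log2 levels of Dsc2, Dsg1b and Pkp1 ran together (Pearson r of 0.978 for Dsc2 and Dsg1b, 0.952 for Pkp1 and Dsg1b, 0.936 for Dsc2 and Pkp1), and those of Dsp ran with Dsc3 (0.896) and Dsg1a (0.874), while Dsc1 ran against Dsc2 (-0.556). The genes outside the 10 whose log2 levels most resembled Dsp were Pdk3 (r 0.964), Rab21 (0.961) and Stk26 (0.957). For Dsg3 they were Epb41l4a (0.983), Tfap2c (0.978), a paralog of the targeted genes, and 1110059G10Rik (0.976), and for Dsc1 they were Brd1 (0.984), Rab9 (0.980) and Epb41l5 (0.977). These 8 values per gene share the group structure and the 2 ages, and the nearest genes were taken from all genes tested, so the correlations are descriptions only.

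In the libraries labelled Tfap2b knockout from 3 weeks, age and genotype cannot be told apart and no control from 3 weeks was analysed here. Beside the controls at 6 months, Dsg2 (41.01 and 71.9 CPM), Dsg3 (161 and 259 CPM) and Dsc3 (1131 and 1888 CPM) lay below all of them. Dsg1a was at 1677 and 2678 CPM, Dsg1b at 172 and 251 CPM, Dsc1 at 537 and 934 CPM, Dsc2 at 6.09 and 11.8 CPM, Dsp at 5678 and 7448 CPM and Pkp1 at 1692 and 2018 CPM, each reaching into or spanning the control range. The first of the 2 libraries was the lower one for all 10 genes. Among the family shares, Dsg1a (77.1 and 77.7%) and Dsg3 (10.2 and 10.4%) of the desmogleins and all 3 desmocollins (Dsc3 at 59.8 and 58.8%) lay within the control range of 6 months. Dsg1b, at 11.3 and 10.4% of desmogleins, lay above that range and Dsg2, at 1.30 and 1.43%, below it.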

How the data were processed

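The authors deposited 1 file per sample with raw counts per gene and no normalization, per the file headers. Per the submitters' processing notes, Trimmomatic 0.36, STAR 2.5.2b and featureCounts from Subread 1.5.2 were used, with the builds GRCm38 and GRCh38 named. The use of strand and the treatment of reads that map to several places were not given in the sources used here, so reads of overlapping genes and of close copies may be shared or lost. Samples were grouped by their titles. Of 49315 identifiers, 49056 were in GENCODE M21 (GRCm38), which gave the gene types. Symbols came from a separate reference of gene names, and coordinates are those of the files.

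CPM are counts per 1000000 counts of the library, and RPKM are CPM per kilobase of the files' exonic length. The 3 libraries of each group at 6 months were compared with edgeR 4.0.16 in R 4.3.3 (filterByExpr, TMM factors, robust glmQLFit and glmQLFTest, prior count 2, no block), with Benjamini-Hochberg adjustment over 17755 genes and a threshold of 0.05. The biological coefficient of variation was 0.311. On simulated counts with genes changed 4-fold, 135 of 191 changed genes were recovered among 17303 tested and 8 of 143 calls were false. Of the members only Dsc2 changed that much (4.12-fold), and recovery of smaller changes was not tested. Background density came from 1418 autosomal odorant and vomeronasal receptor genes, and was subtracted in an alternative. Other alternatives were RLE factors, total counts, no filter, at least 10 counts in every library, DESeq2 1.42.0, limma 3.58.1 voom, a replicate block, all libraries in one fit, the 20 genes with most counts left out, summed Dsg1 copies, and each library left out.

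The members and gene lists were chosen with earlier results of these data known. Named genes were all members, the targeted genes, Krt5, Krt14, Krt1, Krt10, up to 4 genes past the threshold with the largest change in each list, and a few fixed by name; for Dsp, Dsg3 and Dsc1, the 3 genes with the highest Pearson r over 8 libraries. Exceptions are marked in the text. Each member held at least 109 counts in every library at 6 months.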

Additional observations from a re-analysis of the deposited data

Results flagged for a closer look

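Jup stood above every control library of 6 months in both libraries labelled Tfap2b knockout from 3 weeks, at 2017.9 and 2518.5 CPM against a highest control of 1968.5 CPM. It was noted because these libraries enter no comparison. Age and genotype cannot be told apart there.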

How the results depend on the processing

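The count of genes past the threshold, 2637, became 4809 with no filter, 1729 with the replicate block and 1548 with all libraries in one fit, and ran from 668 to 7544 with single libraries left out. Of the 10 members 5 passed, against 3 with the replicate block and 3 to 6 with single libraries left out. Dsg3 and Dsc2 kept their calls in all 16 alternatives. Dsc1 missed the threshold with all libraries in one fit (-0.83) and with the block (-0.82), and ran from -1.04 to -0.52 with libraries left out. Pkp1 missed it with the block (0.59) and ran from 0.57 to 0.73. Jup passed with DESeq2 (0.38), limma-voom (0.37), no filter (0.48) and total counts (0.44), and ran from 0.35 to 0.52. The sign of Dsc3 turned with all libraries in one fit (0.028), no filter (0.090) and total counts (0.049), and without control replicate 3 (0.21) or dKO-labelled replicate 1 (0.058) or 3 (0.068), with a lowest value of -0.084 among left-out libraries. The sign of Dsg2 turned with no filter (0.052), and without control replicate 2 (0.016) or dKO-labelled replicate 1 (0.081) or 2 (0.020), with a lowest value of -0.19 among left-out libraries. The sign of Dsp turned with no filter (0.026), and without control replicate 3 (0.034) or dKO-labelled replicate 1 (0.018). With single libraries left out the lowest value of Dsp was -0.12, and with the background subtracted it was -0.16. Dsg1b turned to -0.25 when the Dsg1 copies were summed, which Dsg1a dominates. The cause of the other changes was not tested. The median log2 fold change of all genes moved from -0.035 to -0.56 with no filter and to -0.14 with all libraries in one fit. Nothing in the labels says that replicate numbers pair the samples. Deviations from the group means correlated at 0.0276, -0.161 and -0.0574 for samples with the same number. For different numbers the correlations ran from -0.111 to 0.169. With 3 libraries a group, such deviations cannot decide whether samples are paired, and the block cut the count of calls as given above. Dsp is among the 20 genes with most counts and has no value when those are left out. The 3 ratios of upper-layer to lower-layer cadherins changed by less than 1 SD between replicates in every alternative run, with Dsc1 over Dsc3 at its smallest without control replicate 1 (-0.48). With 3 libraries a group, how far the spread between libraries or the count depth limits the precision of the members was not tested.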
